A study of Mus musculus with 10 samples.

Results

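The heat shock chaperones described here are 10 genes chosen by symbol, out of 24043 gene rows measured: HSPA1A, HSPA1B and HSPA8 of the HSP70 family, HSPH1 (HSP110), the J-domain protein DNAJB1, the co-chaperone BAG3, HSP90AA1, the mitochondrial chaperonin pair HSPD1 and HSPE1, and the small heat shock protein HSPB1. All 10 were present in the tables of both experiments, and all 10 passed the filter of a mean of at least 1 RPKM (reads scaled by transcript length and by library size). The rule of choice reads gene symbols and no values. Gene symbols are written in capitals, as in the tables.

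RNA-seq was run on organoids, which are miniature epithelial cultures grown in matrix, from the dorsal-lateral prostate of C57BL/6 mice at 8 weeks of age. All groups carried cMYC overexpression, floxed EZH2 alleles and an inducible PSA-CreERT2, a Cre recombinase under the promoter of prostate-specific antigen, which limits cutting to cells in which that promoter is active, and all were grown with 10 nM of the synthetic androgen R1881. In the chemical experiment 3 libraries came from organoids given the solvent DMSO and 3 from organoids given 1 µM DZNep, a compound used to lower the Polycomb histone methyltransferase EZH2. In the genetic experiment 2 libraries came from organoids given ethanol (EtOH) and 2 from organoids given 1 µM Tamoxifen, which releases the Cre recombinase to cut the floxed alleles. RNA was collected at 3 days in both. The labels do not say whether replicates were separate cultures, so the p-values reflect how far these libraries differ from each other, and that spread could be technical.

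Heat shock chaperones hold unfolded proteins and help them fold, and cells under proteotoxic stress make more of many of them. The HSP70 proteins bind and release exposed stretches of a client in a cycle run by ATP. J-domain proteins such as DNAJB1 deliver clients and speed ATP hydrolysis, while HSP110 and BAG proteins exchange the nucleotide and so release the client. HSP90 proteins act later on signalling proteins, the HSP60 and HSP10 chaperonin folds proteins inside mitochondria, and small heat shock proteins hold aggregating proteins without using ATP. In stress, the heat shock factor HSF1 forms trimers that bind inverted repeats of the bases GAA, the heat shock element, in the promoters of most of these genes. HSPA8 is known as the constitutive member of the HSP70 family and HSPA1A and HSPA1B as the strongly inducible ones.

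The heat shock element was searched in the RefSeq promoter table (build GRCm38.p6, 250 bases before to 50 after a start site), as 2 inverted units, GAANNTTC or TTCNNGAA, and as 3 units in a row, GAANNTTCNNGAA or TTCNNGAANNTTC. Each form of 2 units is its own reverse complement, the forms of 3 units are reverse complements of each other, so both strands were covered, and every match of 3 units holds matches of 2 units that overlap. Of the 10 genes, 8 had promoters in the table, with 11 start sites in all. The element of 2 units was found for 7 of these 8 genes, all but DNAJB1, while 15.1% of all 32851 promoters hold it. The element of 3 units was found for HSPH1, HSPD1 and HSPE1, while 0.603% of all promoters hold it. Members are counted per gene, where a match at any of its start sites suffices, while the shares are per promoter. The HSPD1 start site at 55088243 and both of DNAJB1 held no match, and HSPD1 and HSPE1 hold the same letters. A match here describes the letters of the window and is not a measured binding site.

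Matches are shown for the genes whose RNA values are taken up again further on, with the matches in capitals. Each stands in 30 bases written 5′ to 3′ along the gene's strand. HSPH1 is shown first because it is the member that rose with DZNep. Its first match begins 33 bases before the start site at 149636336 on chromosome 5, and its match of 3 units lies after that start. The HSPE1 window lies between the divergent start sites of HSPE1 (55088148) and HSPD1 (55087932) on chromosome 1, with 215 bases between them, so the same letters stand before both starts. HSPD1 has a further start site at 55088243, whose window holds no match and for which the element shown lies after the start. HSPB1 and BAG3 hold single elements of 2 units in the windows shown. HSPB1 has a further match that begins 117 bases before its start and lies outside the window. The BAG3 match lies after its start. The windows of HSPH1, HSPE1 and BAG3 overlap exons that GENCODE M21 gives to Hsph1, Hspd1 and Bag3 respectively, and the HSPB1 window overlaps none.
HSPH1, chr5:149636351-149636380, minus strand: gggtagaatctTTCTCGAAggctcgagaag
HSPH1, chr5:149636287-149636316, minus strand: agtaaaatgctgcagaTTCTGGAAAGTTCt
HSPE1, chr1:55088053-55088082, plus strand: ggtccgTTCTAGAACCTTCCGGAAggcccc
HSPB1, chr5:135887811-135887840, plus strand: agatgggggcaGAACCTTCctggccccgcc
BAG3, chr7:128523603-128523632, plus strand: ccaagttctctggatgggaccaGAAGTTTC

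HSPA1A and HSPA1B are near-identical neighbours on chromosome 17, and the 250 bases before each start site are shown in full to let their likeness be seen. Capitals again mark the element of 2 units, which begins 104 bases before the start in both. The windows differ at 3 of 250 positions, an identity of 98.8%. Counted from 1 at the 5′ end of the window, with the base of HSPA1A first, the differences are C44T, T47C and T249G.
HSPA1A, chr17:34972157-34972406, minus strand: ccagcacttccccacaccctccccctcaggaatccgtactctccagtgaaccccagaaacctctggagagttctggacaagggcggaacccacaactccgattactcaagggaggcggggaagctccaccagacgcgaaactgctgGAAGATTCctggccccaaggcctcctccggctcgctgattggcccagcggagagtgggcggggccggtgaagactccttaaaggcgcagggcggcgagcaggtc
HSPA1B, chr17:34959239-34959488, minus strand: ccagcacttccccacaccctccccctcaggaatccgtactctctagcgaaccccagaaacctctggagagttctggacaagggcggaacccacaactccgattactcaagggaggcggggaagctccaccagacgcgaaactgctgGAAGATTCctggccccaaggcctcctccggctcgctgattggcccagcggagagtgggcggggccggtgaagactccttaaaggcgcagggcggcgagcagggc

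The likeness extends into the transcripts, which bears on how reads could be assigned. Of the 50-base stretches of the longest coding transcript, 66.3% of HSPA1A and 62.3% of HSPA1B occurred in transcripts of other genes, mostly in each other. The share was 74.8% for HSPA8, 58.5% for HSP90AA1, 51.6% for HSPB1 and 44.8% for both HSPD1 and HSPE1, in each case mostly with a single other gene. It was 0.441% for DNAJB1 and 0% for HSPH1 and BAG3. No source used here says how reads that match several places were counted, so the levels of the 7 genes with shared stretches are uncertain, while those of HSPH1, BAG3 and DNAJB1 rest almost wholly on stretches of their own.

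The 10 libraries had similar RPKM totals and numbers of genes detected. These do not show library size, since RPKM is already scaled by it. The RPKM of all genes summed to between 469455 in DMSO replicate 3 and 512726 in DMSO replicate 1, and between 11037 and 11094 genes reached 1 RPKM in a library. Read depth is unknown. EZH2 stood at 29.1 ± 1.78 RPKM (SD, n = 3) with DMSO and 23.8 ± 1.19 with DZNep (limma adjusted p = 0.0142), and at 31.0 ± 4.25 (n = 2) with EtOH and 32.6 ± 0.822 with Tamoxifen (adjusted p = 0.635), so the libraries labelled Tamoxifen had no lower level of the whole EZH2 transcript. The values do not show which exons the counted reads cover. Of 12 luminal and prostate markers 11 reached 1 RPKM in each group, among them KRT8, while PBSN (probasin) was listed at 0 in all groups. All 6 basal markers reached 1 RPKM, and of 6 endothelial markers 1 did, EGFL7 with group means of 2.11 to 2.53 RPKM, while PECAM1 had group means of 0.106 to 0.321 and CDH5 was listed at 0 in every group.

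RPKM is scaled by transcript length, which lets levels be set beside each other within a group. For all members but HSPH1, BAG3 and DNAJB1 the levels, and so their order, are uncertain through stretches shared with other genes. HSPA8 was the most abundant, with 664 ± 44.7 RPKM in DMSO (rank 121 of all genes), and HSPB1 followed with 385 ± 17.1 (rank 181). HSPD1 (130 ± 17.1), HSPE1 (124 ± 15.9) and HSP90AA1 (123 ± 8.43) came next, and the ranges of neighbours in this order overlapped. HSPA1B (95.6 ± 1.58), HSPA1A (49.1 ± 0.202), BAG3 (45.6 ± 1.10) and DNAJB1 (37.1 ± 1.71) followed without overlap, and HSPH1 was lowest with 11.8 ± 0.523 (rank 5653). The inducible HSPA1A and HSPA1B were thus detected in organoids given solvent alone, at ranks 1494 and 727.

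The order of levels was nearly the same in the other groups. HSPE1 and HSP90AA1 came before HSPD1 in DZNep, with overlapping ranges, and BAG3 and DNAJB1 changed places in Tamoxifen, where DNAJB1 had 44.7 ± 1.08 RPKM (SD, n = 2) and BAG3 43.2 ± 0.975. In DZNep the ranges of HSPA1A and BAG3 overlapped. The 10 genes together made up 0.330% to 0.362% of the RPKM total of a library. This share was 0.340% ± 0.00959 in DMSO and 0.358% ± 0.00466 in DZNep (exact permutation test, two-sided, p = 0.1, the smallest that 3 against 3 allows). It was 0.351% in EtOH and 0.350% in Tamoxifen (exact permutation p = 1, where 0.333 is the smallest that 2 against 2 allows).

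**Figure D1:**
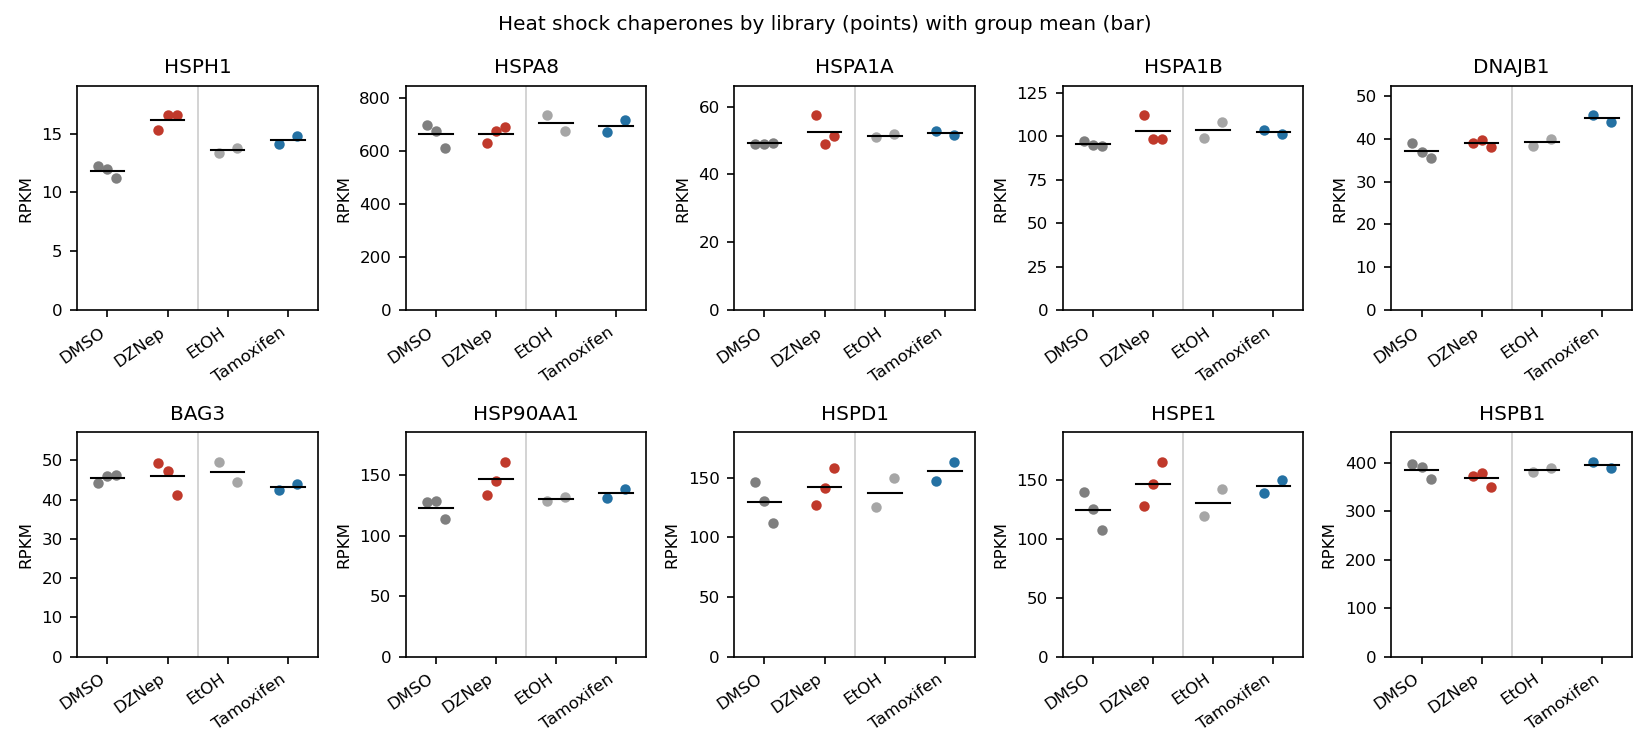
Level of each of the 10 chaperone genes in RPKM, 1 panel per gene with its own linear axis from 0; each point is 1 library, bars are group means and a grey line parts the experiments. The DZNep points of HSPH1 (15.28 to 16.57 RPKM) lie above its DMSO points (11.24 to 12.25), while those of HSPA8, BAG3 and HSPB1 overlap with DMSO.

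The first comparison asked how the chaperones differed between organoids given DZNep and DMSO. HSPH1 rose, to 1.37 times its DMSO level, and was the single member of 10 that passed the test, with 1 higher and 0 lower. The stress-inducible HSPA1A, HSPA1B and DNAJB1 did not pass, nor did HSPA8, BAG3 and HSPB1, and the log2 estimates of these 6 lay between -0.07 and 0.10. HSP90AA1 and HSPE1 had higher means whose difference did not pass. Of all 11143 genes tested, 27.7% passed in either direction, 16.6% higher and 11.1% lower, so the count of 1 among 10 members was below the share of all genes. Changes are on the scale of log2(RPKM + 1), which understates them for low genes, and p-values are adjusted over all genes tested (limma, threshold 0.05). In bulk samples such as these, fewer cells of a type and less RNA per cell cannot be told apart.

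HSPH1 encodes HSP110, the large HSP70 relative that releases nucleotide from HSP70 and takes part in pulling apart aggregates. Its level was 12.25, 11.96 and 11.24 RPKM in DMSO replicates 1 to 3 and 15.28, 16.55 and 16.57 in DZNep replicates 1 to 3. Every DZNep library was above every DMSO library. The log2 change was 0.42 (SE 0.0541, 95% interval 0.29 to 0.54, limma adjusted p = 0.00161). The call held in all 15 alternative settings, with changes from 0.39 to 0.46.

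HSP90AA1, the stress-inducible cytosolic HSP90, stood at 128, 128 and 114 RPKM in the DMSO libraries and at 133, 145 and 161 in the DZNep libraries. The groups did not overlap, but the lowest DZNep library lay close to the highest DMSO library. The log2 change of 0.25 (SE 0.0814, 95% interval 0.06 to 0.43) did not pass, with a limma adjusted p of 0.0567. Without DZNep replicate 1 the change was 0.31 and the adjusted p 0.0313, and over all 15 alternatives the adjusted p ran from 0.0301 to 0.148. HSPA1B was the remaining member without overlap between groups, so 3 of 10 did not overlap, all 3 higher with DZNep, while 45.5% of all genes tested did not overlap, 26.1% with higher and 19.4% with lower values.

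The inducible HSP70 pair had small estimates. HSPA1A had 49.1, 49.0 and 49.4 RPKM with DMSO and 57.5, 49.0 and 51.2 with DZNep, and HSPA1B had 97.3, 95.1 and 94.3 against 112, 98.5 and 98.4. Both were highest in DZNep replicate 1, and the spread of HSPA1A was wider with DZNep (coefficient of variation 8.33%) than with DMSO (0.411%). The log2 changes were 0.09 (95% interval -0.05 to 0.24, adjusted p = 0.302) for HSPA1A and 0.10 (-0.04 to 0.25, adjusted p = 0.236) for HSPA1B in limma.

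The constitutive HSPA8 had 699, 679 and 613 RPKM with DMSO and 633, 676 and 691 with DZNep. The groups overlapped fully, and the log2 change was 0.0075 (95% interval -0.15 to 0.16, limma adjusted p = 0.942). DNAJB1, the heat-inducible J-domain partner of HSP70, had 38.9, 36.9 and 35.5 RPKM against 39.1, 39.8 and 38.0, a log2 change of 0.07 (-0.05 to 0.19, adjusted p = 0.336 in limma). BAG3, which links HSP70 to small heat shock proteins and to selective autophagy, had 44.3, 46.1 and 46.3 RPKM against 49.4, 47.2 and 41.3. Its DZNep libraries lay on both sides of the DMSO range, with a change of 0.0082 (-0.15 to 0.17, limma adjusted p = 0.938). HSPB1, the small heat shock protein HSP27, was the single member with a negative estimate, -0.07 (-0.20 to 0.07, limma adjusted p = 0.403), from 397.7, 392.2 and 365.7 RPKM to 372.7, 379.0 and 350.6.

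The mitochondrial chaperonin subunits had larger estimates and a wider spread. HSPD1 (HSP60) had 147, 130 and 113 RPKM with DMSO and 127, 142 and 158 with DZNep, and HSPE1 (HSP10), its lid, had 140, 126 and 108 against 128, 147 and 166. For both genes the groups overlapped, since DMSO replicate 1 was above DZNep replicate 1. The log2 changes of 0.13 (95% interval -0.12 to 0.39, adjusted p = 0.387) for HSPD1 and 0.24 (-0.03 to 0.50, adjusted p = 0.163) for HSPE1 did not pass in limma. Of the 10 members 9 had a positive estimate with a median of 0.10, beside a median of 0.01 over all genes tested, of which 53.1% were positive. Without DZNep replicate 1 the members' median was 0.055.

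**Figure D2:**
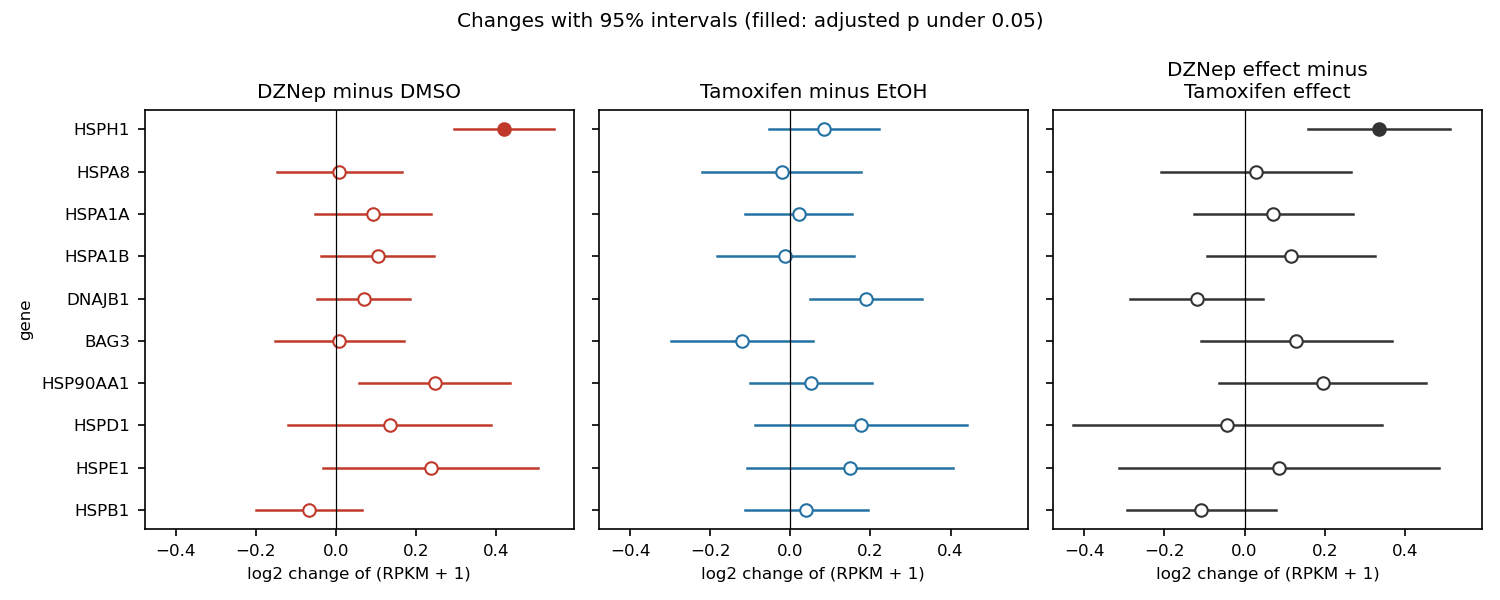
Log2 change of RPKM + 1 for each chaperone gene with DZNep against DMSO, with Tamoxifen against EtOH, and the difference of both changes, 1 panel each; points are limma estimates, bars are 95% intervals and filled points have an adjusted p under 0.05. HSPH1 is filled with DZNep (0.42) and for the difference (0.34), and no point is filled with Tamoxifen.

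The second comparison asked how the same genes differed after Tamoxifen, against EtOH. None of the 10 passed the test in limma (0 higher, 0 lower). By unadjusted p under 0.05 the count was 1 of 10 members, DNAJB1, beside 2831 of all 11123 genes. Among all 11123 genes tested 2.07% passed, 0.692% higher and 1.38% lower. This experiment had only 2 libraries per group and 2 residual degrees of freedom, and the members' intervals were about as wide as those with DZNep. The count stayed at 0 in every alternative setting that kept all libraries.

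DNAJB1 had 38.4 and 39.9 RPKM with EtOH and 45.5 and 44.0 with Tamoxifen. Both Tamoxifen libraries were above both EtOH libraries, with a ratio of means of 1.14. The log2 change of 0.19 (SE 0.0551, 95% interval 0.05 to 0.33) had a limma adjusted p of 0.128. HSPH1, at 13.4 and 13.8 RPKM against 14.1 and 14.8, had a change of 0.08 (-0.05 to 0.22, adjusted p = 0.366). BAG3, at 49.7 and 44.6 RPKM against 42.5 and 43.9, had a change of -0.12 (-0.30 to 0.06, adjusted p = 0.324). These 3 were the members whose groups did not overlap, beside 59.9% of all genes, 36.6% with higher and 23.2% with lower values after Tamoxifen.

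The other members overlapped between EtOH and Tamoxifen. HSPD1 had 126 and 150 RPKM against 147 and 164, with a log2 change of 0.18 (95% interval -0.09 to 0.44), and HSPE1 had 119 and 143 against 140 and 151, with 0.15 (-0.11 to 0.41). HSP90AA1 had 129 and 132 RPKM against 131 and 139, a change of 0.05 (-0.10 to 0.20). HSPA1A (50.9 and 52.0 against 52.9 and 51.5 RPKM), HSPA1B (98.6 and 108 against 104 and 101), HSPA8 (737 and 675 against 672 and 718) and HSPB1 (380 and 389 against 402 and 389) had estimates between -0.02 and 0.04. The median over the 10 members was 0.05, beside 0.04 over all genes tested, and 0.03 without EtOH replicate 1.

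Whether the response to DZNep differed from that to Tamoxifen was tested as the difference of the log2 changes over all 10 libraries. HSPH1 was the single member of 10 that passed (1 higher, 0 lower), while 19.9% of 10994 genes passed, 10.7% higher and 9.20% lower. Its change with DZNep exceeded that with Tamoxifen by 0.34 (SE 0.0798, 95% interval 0.16 to 0.51, limma adjusted p = 0.0169). With a term for the replicate number in the fit (replicate block) this difference did not pass. Without Tamoxifen replicate 1 the difference was 0.31 and no longer passed (adjusted p = 0.0709). For HSP90AA1 the difference was 0.20 (-0.06 to 0.45, adjusted p = 0.259 in limma), and for DNAJB1, whose estimate was larger with Tamoxifen, it was -0.12 (adjusted p = 0.277). The other 7 members had differences between -0.11 and 0.13, none past the threshold.

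Libraries of the same group differed together for some members. HSPD1 and HSPE1 were both highest in DMSO replicate 1 and lowest in DMSO replicate 3. Both were highest in DZNep replicate 3, lowest in DZNep replicate 1, and higher in replicate 2 of EtOH and of Tamoxifen. The RPKM totals of the libraries had the same order within each group. They were 512726, 485224 and 469455 in DMSO replicates 1 to 3 and 472607, 484377 and 489566 in DZNep replicates 1 to 3. The part of these totals in the shared order was not tested. After subtraction of group means the log2 values of HSPD1 and HSPE1 had a Pearson correlation of 0.992 over 10 libraries. The 10 deviations are not independent, since with 2 libraries in EtOH and in Tamoxifen they mirror each other within the group. This correlation is given as a description, since the libraries also share preparation and scaling. On the same measure the correlation was 0.888 for HSPE1 with HSP90AA1, 0.862 for HSPA1A with HSPA1B and -0.797 for HSPE1 with BAG3. The 6 genes outside the set most like the mean of the members on this measure, among 10994, were MRPL13, EIF4A3, EXOSC8, NUDT21, MELK and NUDT19, with correlations of 0.981 to 0.993.

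The ratio of these chaperonin partners was examined after the values had been seen. Both levels are uncertain through the stretches shared with other genes (44.8% for each), and so is their ratio. The RPKM of HSPE1 divided by that of HSPD1 was 0.952, 0.962 and 0.960 in the DMSO libraries and 1.005, 1.03 and 1.05 in the DZNep libraries. Every DZNep ratio was above every DMSO ratio, with means of 1.03 ± 0.0225 and 0.958 ± 0.00524 (exact permutation test, two-sided, p = 0.1, the smallest possible). In the genetic experiment the ratio was 0.948 and 0.954 with EtOH and 0.947 and 0.920 with Tamoxifen (exact permutation p = 0.333, the smallest possible).

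The 2 cytosolic HSP90 genes had estimates of opposite sign with DZNep, of which that of HSP90AB1 passed the test. HSP90AB1, the constitutive form, had 944, 953 and 893 RPKM with DMSO and 791, 827 and 783 with DZNep, with a change of -0.22 on the log2 scale (standard error 0.0550, adjusted p = 0.0239 in limma). All DZNep libraries were below all DMSO libraries, but the call was lost without DMSO replicate 2 (adjusted p = 0.115), DZNep replicate 1 (0.0645), DZNep replicate 2 (0.0631) or DZNep replicate 3 (0.0741), and under quantile normalization (0.156). The ratio of HSP90AA1 to HSP90AB1 was 0.135, 0.135 and 0.127 with DMSO and 0.168, 0.176 and 0.206 with DZNep (exact permutation p = 0.1). With EtOH it was 0.139 and 0.144 and with Tamoxifen 0.146 and 0.147 (exact permutation p = 0.333). HSP90AA1 shares 58.5% of its 50-base stretches with other genes, so the level behind this ratio is uncertain. The ratio of HSPA1B to HSPA1A stayed between 1.91 and 2.08 in all 10 libraries, with exact permutation p-values of 0.6 for DZNep and 1 for Tamoxifen. Of their 50-base stretches 66.3% (HSPA1A) and 62.3% (HSPA1B) are shared, mostly with each other. The unstated counting of shared reads could hold this ratio steady, so no conclusion is drawn from it.

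**Figure D3:**
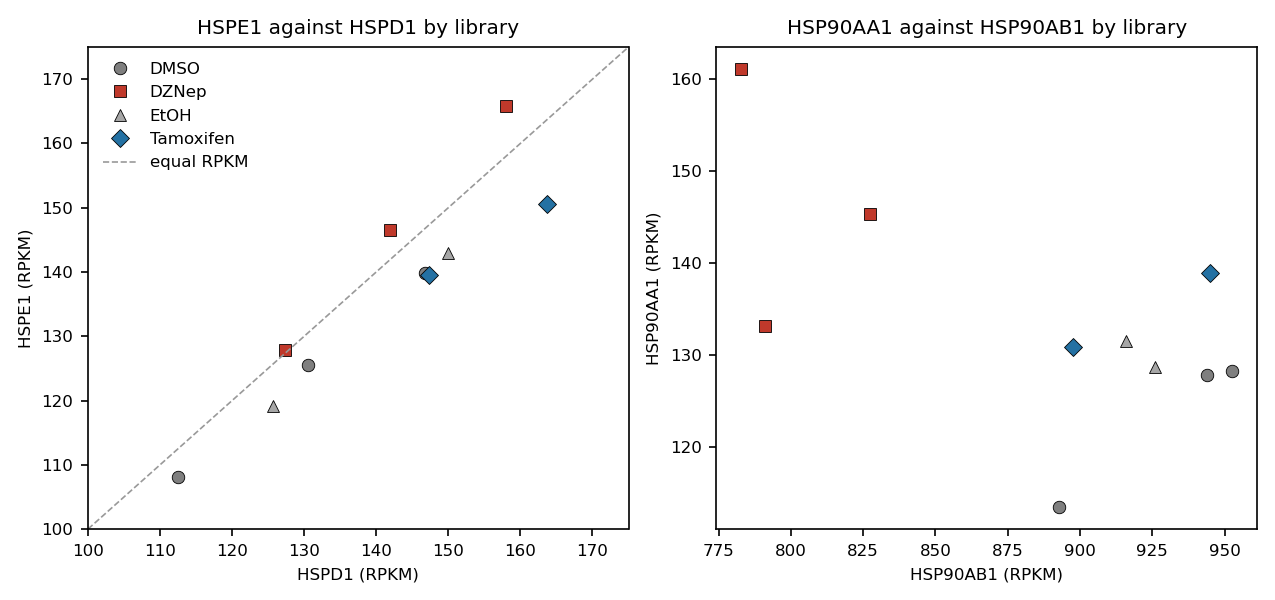
RPKM of HSPE1 against HSPD1 (left, dashed line at equal RPKM) and of HSP90AA1 against HSP90AB1 (right) in the 10 libraries; each symbol is 1 library, shaped and coloured by group, and the axes do not start at 0. The DZNep libraries lie on the upper side of the dashed line on the left, the other groups on the lower side, and on the right the DZNep libraries have the lowest HSP90AB1 values (783 to 827 RPKM).

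The members were then set beside the wider chaperone network, 133 other genes in 12 lists by role. With DZNep, 17 of the 117 genes tested rose and 10 fell, or 23.1%, beside 27.7% of all genes. Among the 17 rises DNAJC12 passed the filter only through its DZNep libraries. Of these 27 calls 9 held when any single library was left out (HSF2BP, IER5L, HSPA4L, TRAP1, DNAJA3, DNAJC10, GRPEL2, CLPP and HTRA2) and 18 were lost at least once. Leaving out DMSO replicate 2 left 10 calls, DZNep replicate 2 left 13 and DZNep replicate 3 left 15. With Tamoxifen 1 of 116 passed, beside 2.07% of all genes, and for the difference 9 were higher and 6 lower of 116, beside 19.9%. Of these 15 calls 5 held when any single library was left out, and the count was 9 without DMSO replicate 2, DMSO replicate 3 or DZNep replicate 2, 8 without EtOH replicate 1, 7 without Tamoxifen replicate 1 and 6 without Tamoxifen replicate 2.

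The relatives of HSPH1 moved both ways with DZNep. Of the other HSP70 and HSP110 proteins, 9 were tested, 1 rose and 2 fell, with a median change of -0.03. HSPA4, a cytosolic HSP110, had 54.6, 52.5 and 48.9 RPKM with DMSO and 58.7, 60.4 and 63.1 with DZNep, a log2 change of 0.22 (limma adjusted p = 0.0242). That call was lost without DMSO replicate 2 (0.0787), DMSO replicate 3 (0.0664), DZNep replicate 2 (0.0773) or DZNep replicate 3 (0.0645). HSPA4L, the other relative, fell from 19.04, 19.44 and 18.48 RPKM to 14.99, 13.83 and 16.43, by 0.32 on the log2 scale (adjusted p = 0.0106 in limma). With Tamoxifen HSPA4L had a log2 change of 0.23 (adjusted p = 0.0878), and its responses differed by -0.54 (SE 0.0917, limma adjusted p = 0.00376). HYOU1, the HSP110 of the endoplasmic reticulum, fell by 0.24 (adjusted p = 0.0141), and leaving out DMSO replicate 2 ended that call (adjusted p = 0.0659).

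Of the mitochondrial chaperones and proteases 6 of 12 tested rose with DZNep and 0 fell, with a median change of 0.22, beside 16.6% of all genes higher. TRAP1, DNAJA3, GRPEL1 and GRPEL2 of this list are also on the HSP90, J-domain or exchange factor lists. TRAP1, the mitochondrial HSP90, went from 38.2, 37.4 and 34.0 RPKM to 43.4, 45.3 and 47.5, a log2 change of 0.31 (limma adjusted p = 0.00944). The protease subunit CLPP rose by 0.41 (adjusted p = 0.0108), the intermembrane protease HTRA2 by 0.39 (adjusted p = 0.00234), the J-domain protein DNAJA3 by 0.31 (0.00934) and the nucleotide exchange factor GRPEL2 by 0.29 (0.00485), all in limma. GRPEL1, with 0.31 (adjusted p = 0.0163), lost its call without DMSO replicate 2 (0.066) or DZNep replicate 2 (0.0623). HSPA9, the mitochondrial HSP70 that works before HSPD1, had 0.13 (adjusted p = 0.168). With Tamoxifen 0 of these 12 passed, and their median was 0.11. For the difference of the responses 1 of the 12 was higher and 0 lower, beside 10.7% and 9.20% of all genes. That gene was YME1L1, and none of the 6 that rose with DZNep passed for the difference.

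Heat shock factors and their regulators showed 1 rise and 2 falls among 9 tested with DZNep. HSF1 itself had a log2 change of 0.05 (limma adjusted p = 0.433). The gene that rose, HSF2BP, was named for binding HSF2 and is known for its role in meiotic recombination. It had 1.26, 1.18 and 1.06 RPKM with DMSO and 2.35, 3.10 and 2.78 with DZNep, a change of 0.79 (adjusted p = 8.66e-04 in limma). IER5L, a relative of the HSF1 regulator IER5, fell by 0.40 (adjusted p = 0.00174). Of the other textbook HSF1 targets 1 rose and 3 fell among 20 tested, with a median of -0.01; HSPA4, HSPA4L and HSP90AB1 are on this list too. The 4 calls of this list became 1 without DMSO replicate 2 or DZNep replicate 3 and 2 without DZNep replicate 1 or DZNep replicate 2.

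The remaining lists are given beside 27.7% of all genes called with DZNep. Of 18 HSP90 co-chaperones 0 rose and 1 fell, of 13 genes of the cytosolic chaperonin and prefoldin 0 passed, and of 4 small heat shock proteins 0 passed. The fall, FKBP5, was lost in 4 of 6 cases with a library left out. Without DMSO replicate 1, 2 co-chaperones rose and 0 fell, and 2 genes of the chaperonin list rose. Under quantile normalization 2 genes of the chaperonin list and 1 small heat shock protein fell. Among 25 other J-domain proteins 5 rose and 1 fell with a median of -0.02. The rises were 2 without DMSO replicate 2 or DZNep replicate 3 and 3 without DMSO replicate 3 or DZNep replicate 2. DNAJC12, among the 5, passed the filter of 1 RPKM only through its DZNep libraries. It had 0.722, 0.776 and 0.987 RPKM with DMSO and 1.27, 1.19 and 1.48 with DZNep. DNAJC10, a disulfide reductase of the endoplasmic reticulum, rose by 0.27 (limma adjusted p = 0.0106), a call that held when any single library was left out. Among 15 chaperones of the endoplasmic reticulum 3 rose and 1 fell, and all 3 rises were lost without DMSO replicate 2 or without DZNep replicate 2, while 1 was left without DMSO replicate 3 or DZNep replicate 3. HSPA5, the HSP70 of that compartment, had a change of 0.08 (adjusted p = 0.400), and HSP90B1, its HSP90, -0.12 (adjusted p = 0.167). Among 9 BAG proteins and exchange factors 3 rose and 1 fell, and 1 rise was left without DMSO replicate 2 or DZNep replicate 2. Among 13 ubiquitin and autophagy partners 1 rose and 2 fell, with 0 calls left without DMSO replicate 2 and 1 without DMSO replicate 3 or DZNep replicate 2.

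With Tamoxifen the single network gene that passed was CHORDC1, an HSP90 co-chaperone and textbook HSF1 target. It had 27.6 and 26.4 RPKM with EtOH and 21.0 and 20.6 with Tamoxifen, and fell by 0.36 on the log2 scale (SE 0.0538, limma adjusted p = 0.0470). Both Tamoxifen libraries were below both EtOH libraries. The call was lost without EtOH replicate 1 (adjusted p = 0.0647), Tamoxifen replicate 1 (0.231) or Tamoxifen replicate 2 (0.348).

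**Figure D4:**
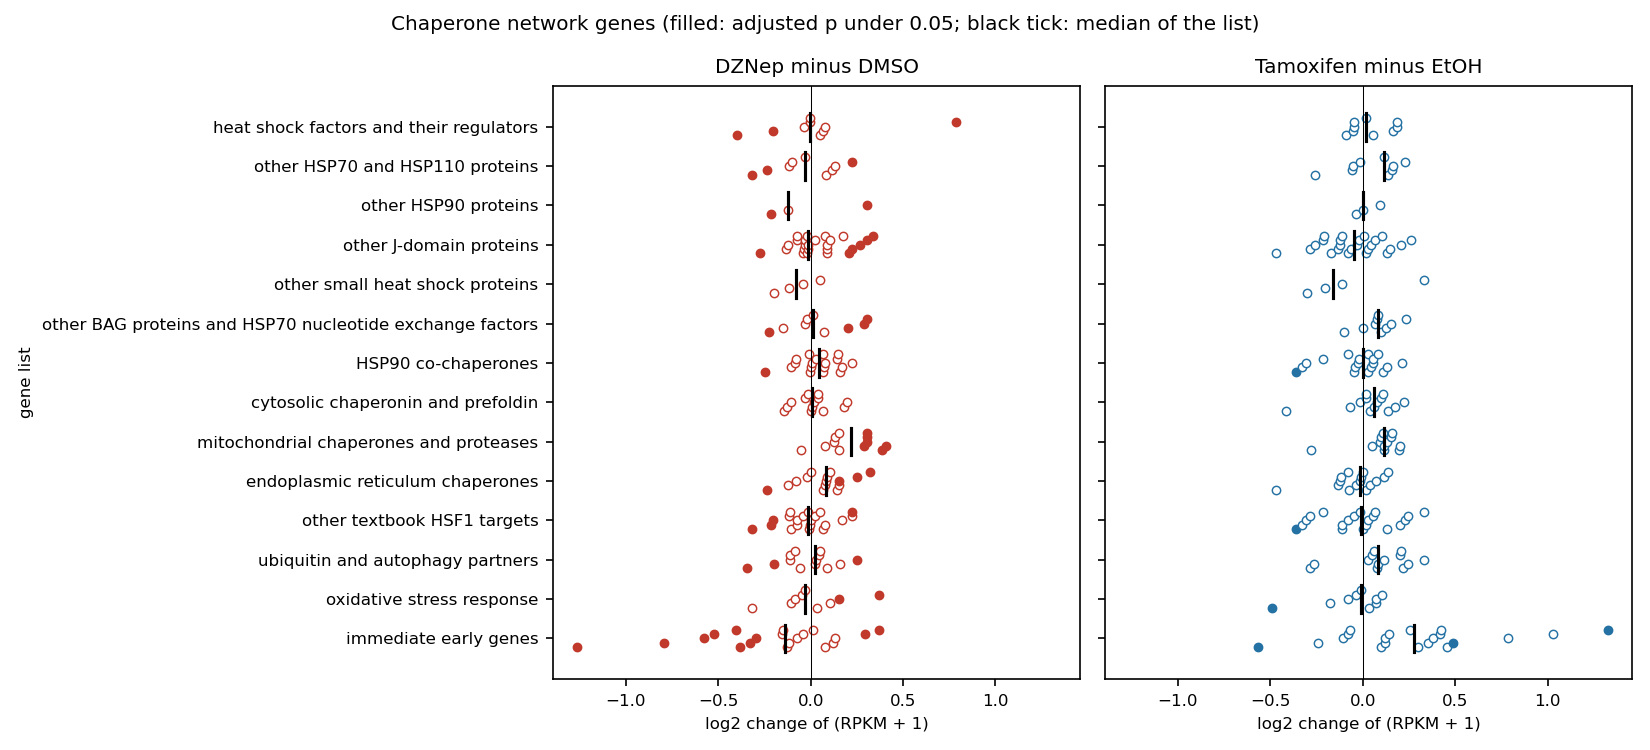
Log2 change of RPKM + 1 of the tested genes of each list with DZNep against DMSO (left) and with Tamoxifen against EtOH (right); each point is 1 gene, filled where the adjusted p is under 0.05, and a black tick marks the list's median. The mitochondrial list has a median of 0.22 with DZNep and 0.11 with Tamoxifen, and the other textbook HSF1 targets have a median of -0.01 with DZNep.

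Other stress genes and cell type markers moved with the treatments and are given beside these results. Of 9 oxidative stress genes 2 rose with DZNep and 0 fell. HMOX1, which breaks down heme, rose by 0.37 (limma adjusted p = 0.00741) and kept its call when any single library was left out, while the cystine transporter SLC7A11 lost its call in each of the 6 cases (adjusted p from 0.0556 to 0.106).

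Of 20 immediate early genes 2 rose and 8 fell with DZNep, beside 16.6% and 11.1% of all genes. With Tamoxifen 2 rose and 1 fell, beside 0.692% and 1.38%, and 5 rose under quantile normalization or trimmed mean scaling. Without EtOH replicate 2 there were 6 rises and 2 falls, without Tamoxifen replicate 1 there was 1 rise, and without Tamoxifen replicate 2 there were 0 calls. FOSB, a subunit of AP-1, went from 45.7, 37.2 and 36.0 RPKM with DMSO to 17.5, 17.3 and 13.1 with DZNep. With Tamoxifen it rose from 9.125 and 13.29 RPKM to 25.25 and 33.73, by 1.33 on the log2 scale (limma adjusted p = 0.0486), a call lost without Tamoxifen replicate 1 (0.0956) or Tamoxifen replicate 2 (0.230).

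Basal markers summed to 4955 to 5253 RPKM with DMSO and 6711 to 6984 with DZNep, and to 5131 to 5529 with EtOH and 4066 to 4178 with Tamoxifen. Most of each sum came from the keratins KRT5, KRT14 and KRT15, and the other members did not all follow it. With DZNep the mean of the integrin ITGA6 was 39.2 RPKM, against 48.1 with DMSO, and that of TRP63 was 46.6 against 48.2, while NGFR had 11.4 RPKM with Tamoxifen against 7.41 with EtOH. Luminal and prostate markers summed to 4473 to 4616 RPKM with DMSO and 4775 to 4967 with DZNep. With EtOH the sum was 4466 to 4762 and with Tamoxifen 3829 to 4061. These markers also moved both ways. PSCA (628 RPKM with DMSO, 896 with DZNep) and KRT8 (156 and 213) had higher means with DZNep. CDH1 (210 and 200) and FOXA1 (110 and 101) had lower means. KRT19 (2820 with EtOH, 2307 with Tamoxifen) and PSCA (630 and 423) had lower means with Tamoxifen. EPCAM (210 and 241) and KRT18 (256 and 293) had higher means.

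Fibroblast and smooth muscle markers summed to 3.05 to 4.32 RPKM with DMSO, 8.32 to 9.50 with DZNep, 3.44 to 3.86 with EtOH and 2.79 to 4.25 with Tamoxifen. The higher sum with DZNep came mostly from DCN (2.77 RPKM with DMSO, 6.11 with DZNep) and ACTA2 (0.692 and 2.62). COL1A1 (0.0904 and 0.0363), PDGFRA (0.0283 and 0.0137) and PDGFRB (0.0128 and 0.0075) had lower means with DZNep, and COL3A1 and DES were listed at 0 in every group. The part of these shifts in the chaperone results was not tested.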

How the data were processed

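The measurements are RNA-seq of 10 libraries, grouped by the treatment in their labels. The labels' protocols give TRIzol for RNA extraction and the TruSeq stranded mRNA kit, with 500 ng of RNA. The submitters' processing notes name bcl2fastq 2.18, STAR, Cufflinks and build mm9. The authors deposited log2 RPKM values in a table for each experiment, with a floor of 0, read here as log2(RPKM + 1), and RPKM was recovered from them. No source used here states the treatment of strand or of multiply aligned reads. In the genetic experiment 27 symbols turned into dates were left out.

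The filter was a mean of 1 RPKM or more in a table. The test was limma 3.58.1 in R 4.3.3 (mean trend, two-sided, Benjamini-Hochberg, threshold 0.05), run separately for the chemical (4 residual degrees of freedom) and the genetic (2) experiment, and for the difference on all 10 libraries (6). Scripts were tested on simulated data. Counts could not be recovered, so no count model was used.

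The members and lists were chosen with earlier results of these data known. The named network genes came from up to 3 rises and 3 falls of largest change per list, lists of up to 5 measured genes in full, and the 6 genes most like the members. HSF1, HSPA5, HSPA9, HSPA4L with Tamoxifen, the 9 network calls listed together, and the ratios were chosen after the values were seen. Promoter sequences are from RefSeq (GRCm38.p6), and shared stretches of 50 bases were counted in GENCODE M21 transcripts. Alternatives changed the pseudocount, filter, scaling, variance model, replicate block and libraries.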

Additional observations from a re-analysis of the deposited data

Results flagged for a closer look

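The response of HSPH1 differed between the experiments by a test of the difference itself, though not in a fit with a replicate block. Its log2 change with DZNep exceeded that with Tamoxifen by 0.34 (limma adjusted p = 0.0169, 10 libraries), and without Tamoxifen replicate 1 it was 0.31 and did not pass (adjusted p = 0.0709). All 3 DZNep libraries were above all 3 DMSO libraries, and both Tamoxifen libraries were above both EtOH libraries, so the estimates had the same sign and differed in size.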

How the results depend on the processing

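The number of members called with DZNep was 1, and it was 2 with robust variances and 2 in the joint fit of all 10 libraries, through HSP90AA1 each time (adjusted p = 0.0365 and 0.0301). Leaving out each library gave 1 to 2. With Tamoxifen it was 0 in all 13 alternatives, and for the difference 0 to 1 when a library was left out. No result changed direction past the threshold, and the cause of these moves was not tested. For samples with the same replicate number, deviations from the group means had correlations of 0.0591, 0.0590 and -0.0675 in the chemical experiment. In the genetic experiment the value was 0.0400, where the deviations of 2 libraries per group mirror each other. Such low correlations over all genes cannot exclude a pairing, so whether these samples were paired is not known. With the replicate block the difference had 0 members called (HSPH1 adjusted p = 0.0610), HSP90AB1, HSPA4 and GRPEL1 with DZNep did not pass (0.103, 0.0914 and 0.0528), and calls over all genes went from 3088 to 1610 with DZNep, from 230 to 878 with Tamoxifen and from 2190 to 1226 for the difference. Over all genes the Tamoxifen count was 1 with no filter, 400 with trimmed mean scaling, 646 with robust variances, 1028 in the joint fit and 37 to 977 when a library was left out. Leaving out a library gave 1522 to 3359 calls with DZNep and 924 to 2326 for the difference. Network calls went with the block from 27 to 13 with DZNep and from 15 to 7 for the difference, and with Tamoxifen ran from 0 to 9. The members' median with Tamoxifen was 0.0061 under quantile normalization and 0.014 under trimmed mean scaling. The signs of HSPA8 and BAG3 with DZNep, which did not pass, differed in 4 and 5 of 15 alternatives. Fits that leave 1 library in a group assume it varies like the other groups.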
